A study of Mus musculus with 21 samples.

Results

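The probes for the enzymes of glycolysis and for glyceraldehyde-3-phosphate dehydrogenase (Gapdh) were followed in Ba/F3, a murine pro-B line whose growth needs interleukin 3, after actuation on a digital microfluidic chip or after heating. Members were all probes whose name on the Illumina array is Hk1, Hk2, Pfkl, Pfkp, Aldoa, Gapdh, Pgk1, Eno1, Pkm2 (now Pkm) or Ldha. This gave 9 of 30854 gene names on the array, read by 15 of the 45281 probes, and Hk2 is not analysed here because 0 probes carried that name. Total RNA was hybridised to 21 arrays in 7 groups of 3. In batch A, cells were actuated for 15 min at 400 Vpp and 18 kHz, were actuated alike at 1 kHz, or were left untreated. In batch B, cells were left untreated or were heated for 15 min at 42, 47 or 52 °C. All groups are of the same cell line, no label says that replicates came from separate cultures, and the p-values then measure the spread between these samples, which may be technical. No label gives the time between treatment and lysis.

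Glycolysis splits glucose into pyruvate in the cytosol and yields ATP and NADH. Hexokinase traps glucose as its phosphate, phosphofructokinase makes the committed and most regulated step, and aldolase cuts the sugar into triose phosphates. Gapdh and phosphoglycerate kinase follow, enolase and pyruvate kinase lead to pyruvate, and lactate dehydrogenase turns pyruvate into lactate and restores NAD+. Growing lymphoid cells use the pathway heavily, hypoxia inducible factor and Myc are known activators of many of its genes, and Gapdh is widely used as a reference transcript to which others are scaled.

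For 6 of the genes there was a probe far above background on all 21 arrays. These were Gapdh (probe 5870154), Ldha (3190685), Eno1 (610253), Pgk1 (5690341), Aldoa (1690537) and Pkm (3780291). Their ranks among all probes of an array ran from 124 for Ldha at its brightest to 545 for Pkm at its dimmest, which describes signal and not the order of the transcripts, since brightness also depends on the probe. The highest intensity of any probe was 55087.7, so that no member was near the top of the range. Gapdh was read by 106 to 151 beads per array, with a standard error over beads of 1.88% to 2.79% of its intensity. The other 14 probes were read by 17 to 62 beads. Pfkl (6650711), the liver-type phosphofructokinase, was of middle brightness, and both Pfkp probes that were detected (290110 and 2900482) for the platelet-type enzyme were dimmer, as were Hk1 (4150397) and a second Pkm probe (4610192). A second Pfkl probe (6590661) was detected on 5 of 9 arrays in batch A and 4 of 12 in batch B, and a second Pgk1 probe (5810487) on 7 of 9 and 7 of 12. The remaining Pfkp probe (4040097) was detected on 0 of 21 arrays and the remaining Pgk1 probe (3870470) on 1 of 21, so that neither was tested and 13 members were.

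Promoter windows of 300 bases, 250 before to 50 after a transcript start, were taken from RefSeq on mouse build GRCm38.p6. There were 16 windows for the 9 genes. Both strands were searched for ACGTG, the core bound by hypoxia inducible factor, and for GAANNTTC and TTCNNGAA, pairs of units of the heat shock element. ACGTG stood in a window of 6 of 9 genes (Hk1, Aldoa, Gapdh, Pgk1, Pkm and Ldha), against 21.8% of 27025 genes, and in 7 of the 16 windows, against 19.6% of 32851 windows, where a pair of overlapping Aldoa windows share the same match. Each heat shock core stood in 1 of the 16 windows, that of Pfkl in both cases, against 7.86% of all windows for GAANNTTC and 8.52% for TTCNNGAA. These are matches of letters and no evidence of binding. The windows of Pfkl, whose probe is described below across the heat groups, of Ldha, whose highest mean was at 47 °C, and of Gapdh, the reference transcript, were chosen after the values were seen and are shown 5′ to 3′ on the gene's strand, with both heat shock cores in capitals for Pfkl and ACGTG on either strand in capitals for Ldha and Gapdh.
Pfkl, chr10:78009758-78010057, minus strand: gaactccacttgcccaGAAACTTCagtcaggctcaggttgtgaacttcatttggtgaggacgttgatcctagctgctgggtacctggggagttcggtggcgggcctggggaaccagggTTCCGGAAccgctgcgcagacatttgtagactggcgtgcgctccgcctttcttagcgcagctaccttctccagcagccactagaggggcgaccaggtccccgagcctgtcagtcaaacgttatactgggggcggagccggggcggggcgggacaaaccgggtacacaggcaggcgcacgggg
Ldha, chr7:46845554-46845853, plus strand: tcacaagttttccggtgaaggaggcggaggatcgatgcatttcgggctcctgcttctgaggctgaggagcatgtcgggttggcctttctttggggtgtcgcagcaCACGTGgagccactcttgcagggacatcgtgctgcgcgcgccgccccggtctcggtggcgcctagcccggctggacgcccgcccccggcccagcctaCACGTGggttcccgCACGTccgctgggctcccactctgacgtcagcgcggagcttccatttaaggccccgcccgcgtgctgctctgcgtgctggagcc
Gapdh, chr6:125165724-125166023, minus strand: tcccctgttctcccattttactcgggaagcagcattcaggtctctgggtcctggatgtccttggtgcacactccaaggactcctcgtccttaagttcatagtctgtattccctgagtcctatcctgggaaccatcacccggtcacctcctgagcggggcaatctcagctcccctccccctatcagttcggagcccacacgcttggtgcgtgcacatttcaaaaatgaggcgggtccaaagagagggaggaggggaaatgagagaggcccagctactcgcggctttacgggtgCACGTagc

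Before the results, several facts of the arrays bear on all values. Arrays of a group were least alike at 18 kHz, with correlations of 0.925 to 0.977, against 0.984 to 0.996 within the other groups. The 95th percentile of bead intensity was 732.7, 277.4 and 1110.7 on the 18 kHz arrays, against 1482.4 to 1524.2 on the untreated arrays of batch A, and 9420 to 14355 probes were detected per array in batch A against 12004 to 13234 in batch B. Each batch lay on a pair of beadchips, and the 3 untreated arrays of batch A shared a beadchip with 2 of the 18 kHz arrays and 1 of the 1 kHz arrays. Among markers of pro-B and Ba/F3 cells, the interleukin 3 receptor genes Csf2rb, Csf2rb2 and Il3ra, with Ptprc, Cd44 and Cd79b, were detected on all 21 arrays, while Pax5, Ebf1, Vpreb1, Igll1 and Kit were detected on 0 to 2 arrays of a batch. Of 4 macrophage markers Adgre1 was detected on all arrays and Lyz2 on 9 of 9 in batch A and 3 of 12 in batch B, with Csf1r and Itgam on 0. The summed level of the 4 macrophage markers was 3911.68 to 4934.44 at 18 kHz against 3833.26 to 4559.46 in untreated cells, and 2577.11 to 5904.25 at 52 °C against 2328.17 to 3051.15 in untreated cells. The summed level of the 12 pro-B and Ba/F3 markers was 5701.31 to 7342.36 at 18 kHz against 6832.33 to 8234.89 in untreated cells, which overlapped. In batch B it was 7675.84 to 8538.78 in untreated cells, 5641.58 to 7115.77 at 42 °C, 6437.1 to 7224.62 at 47 °C and 5998.74 to 10960.6 at 52 °C, wholly below untreated cells at 42 and 47 °C. Levels were summed on the linear scale, so that both sums mostly follow the brightest gene of the list. For Csf2rb2 the mean log2 level was 12.06 in batch A and 12.45 in batch B. The next pro-B and Ba/F3 markers stood at 10.32 (Csf2rb) and 8.87 (Cd44). Adgre1 stood at 12.01 and 11.60, and Lyz2, the next macrophage marker, at 6.21 and 5.05. The part of these markers in the results was not tested. In bulk RNA, fewer cells expressing a gene and less RNA per cell cannot be told apart.

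**Figure D1:**
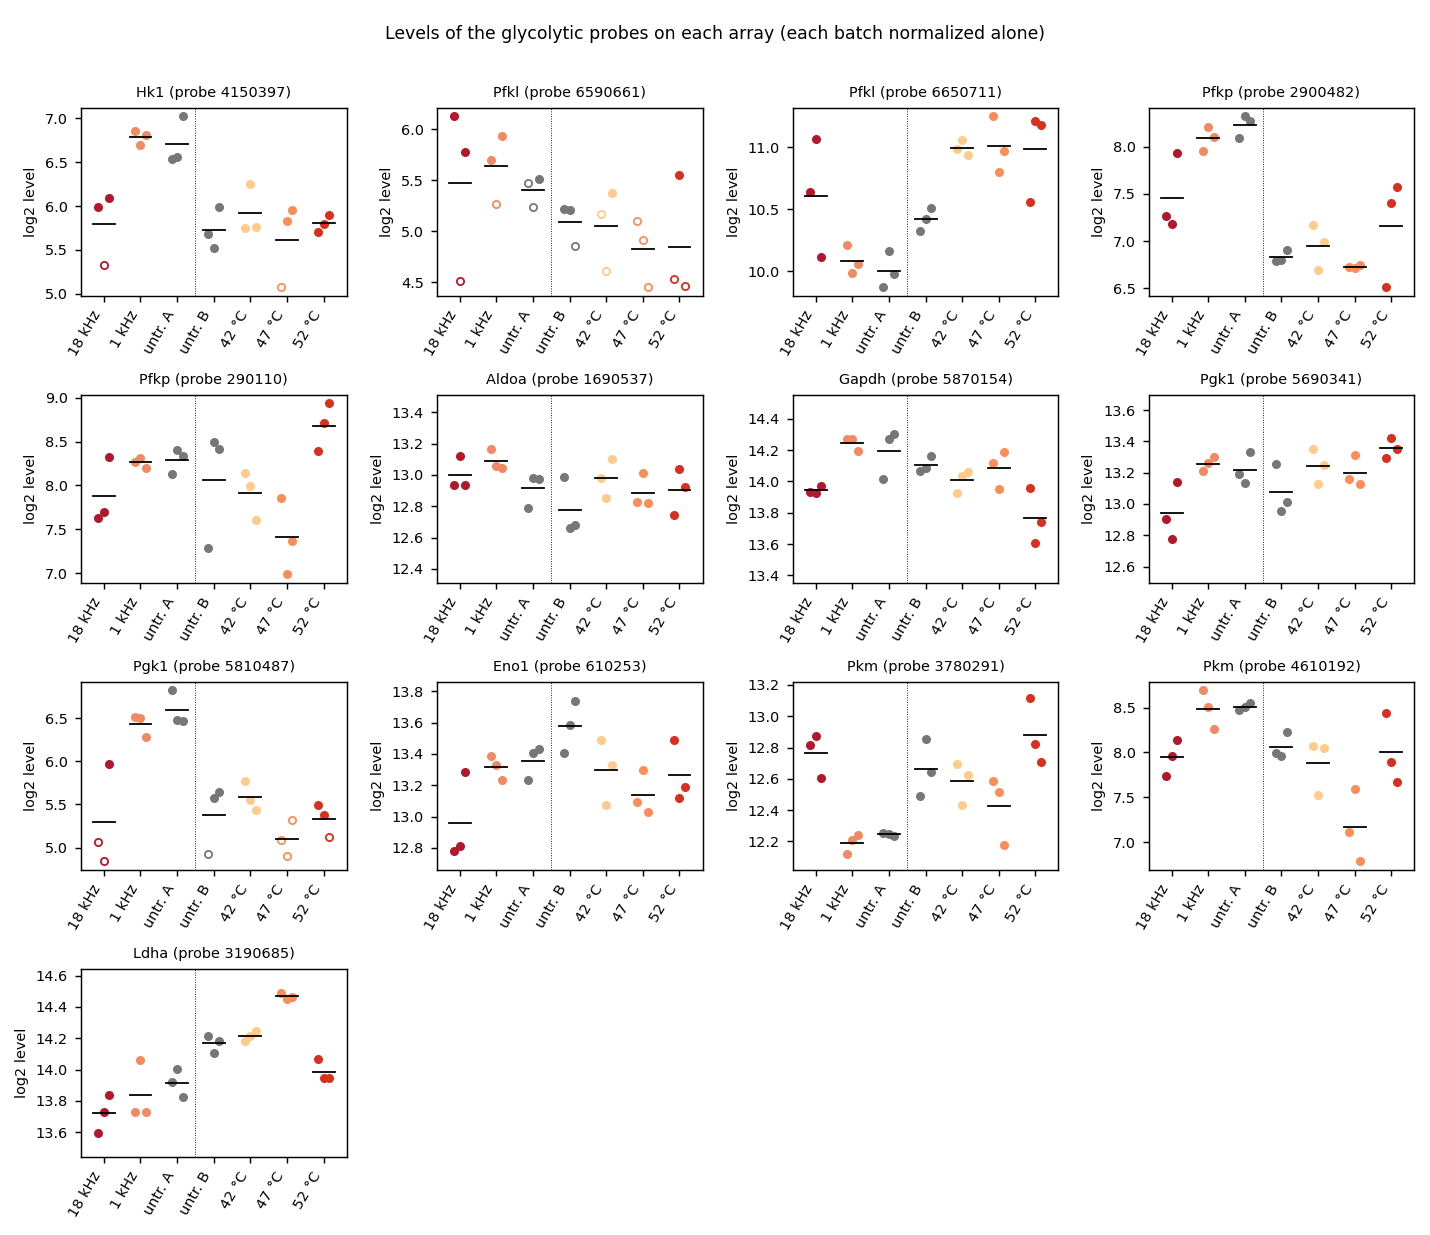
Normalized log2 level (vertical axis) of the 13 tested probes on each array, by group, with batch A left and batch B right of the dotted line. Points are arrays, open where the probe was not detected, and bars are means of 3 arrays. The 3 arrays of 47 °C sit above all other batch B arrays for Ldha, and the 3 of 18 kHz sit above all other batch A arrays for Pkm probe 3780291.

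Actuation at 18 kHz was set against untreated cells first. Of 13 glycolytic probes, 1 for Pkm rose, 1 dim probe for Pgk1 fell and 11 did not pass the test. A probe passed at an adjusted p below 0.05 from limma, with Benjamini-Hochberg adjustment over all 14130 probes tested, of which 3.07% passed, 1.3% higher and 1.77% lower. At an unadjusted p below 0.05 there were 7 of the 13 members, against 28.6% of all probes. The median change of the 13 was -0.28 log2, against -0.08 over all probes. The 18 kHz arrays lay wholly above the untreated arrays for 1 member and wholly below for 5, together 46.2% of the members against 30.3% of all probes. The count of calls turned on which 18 kHz array was kept. Without replicate 3, the brightest of the group, 9 of 13 members passed and 4478 of all 14130 probes did, and without replicate 1 or replicate 2 none of the members passed (77 and 355 of all probes). With replicate 3 as the lone 18 kHz array none of the members passed either, with its spread taken from the other groups.

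Pyruvate kinase, the enzyme of the last step to pyruvate, was read by 2 probes whose values differed in sign of change. The bright Pkm probe (3780291) had log2 levels of 12.81, 12.88 and 12.61 at 18 kHz, against 12.25, 12.25 and 12.23 in untreated cells. It rose by 0.52 log2, or 1.44-fold (95% interval 1.21 to 1.71, limma adjusted p = 0.0465). All 3 arrays at 18 kHz were above all 3 untreated ones. The dim Pkm probe (4610192) stood at 7.74, 7.96 and 8.14 at 18 kHz, against 8.48, 8.51 and 8.55 in untreated cells. Its change of -0.56 log2 did not pass (limma adjusted p = 0.0664), although here the 18 kHz arrays were all below the untreated ones. The bright probe is annotated on the array with a curated RefSeq transcript and the dim one with a predicted transcript, and no probe sequence was used to place either within the gene. The difference between both probes on an array was 5.07, 4.92 and 4.46 log2 at 18 kHz, against 3.43, 3.70 and 3.98 at 1 kHz and 3.78, 3.74 and 3.69 in untreated cells. The 18 kHz arrays thus had the widest difference of batch A, each above every array of both other groups. This was not particular to Pkm. Between the brightest and next probe of Pgk1 the difference was 7.84, 7.93 and 7.17 at 18 kHz, against 6.37 to 7.02 on the other arrays of batch A. For Pfkp it was 0.37, 0.51 and 0.38 at 18 kHz, against 0.03 to 0.32. The Pfkl probes were not compared in this way, and none of these differences was tested further. With beadchip as a block the change of Pkm probe 3780291 was 0.51 (limma adjusted p = 0.0781), and on beadchip 2 alone it was 0.50 (limma adjusted p = 0.317). Leaving out any of the 3 untreated arrays, or 18 kHz replicate 1 or 2, ended the call, with changes of 0.46 to 0.60 over all 6 arrays left out in turn. Scaling each array by its median alone turned the change to -0.49, in a setting where the median of all probes moved to -1.09, and relative to that median it was 0.60.

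**Figure D2:**
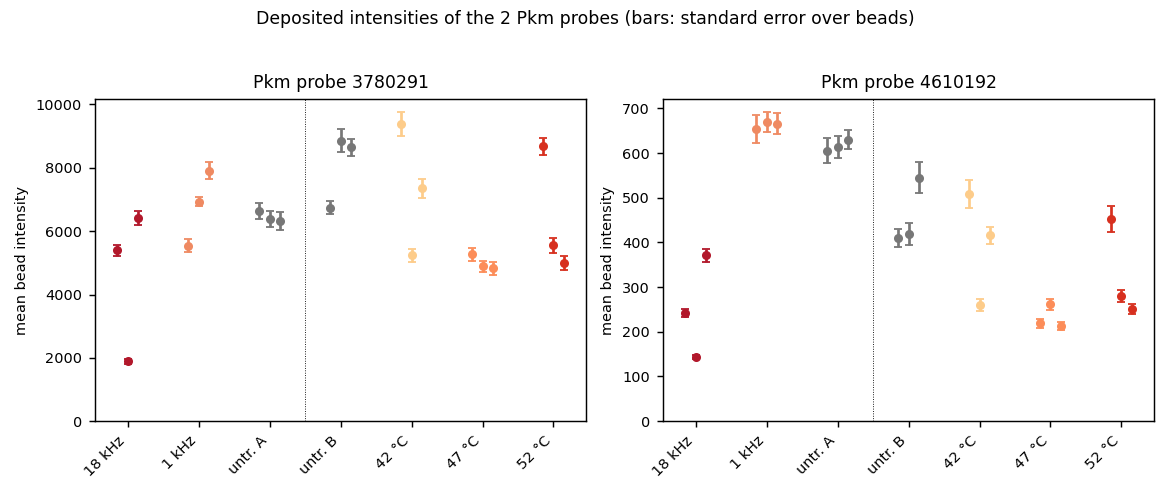
Deposited mean bead intensity (vertical axis, linear, from 0) of both Pkm probes on each array, by group, before normalization, with the standard error over beads. At 18 kHz the bright probe on the left read 5390, 1890 and 6424 and the dim probe on the right 243, 143 and 371, against 6330 to 6634 and 606 to 630 in the untreated cells of batch A.

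Phosphoglycerate kinase gives the first ATP of the pathway. Its dim probe (Pgk1 5810487) had log2 levels of 5.06, 4.84 and 5.97 at 18 kHz, against 6.82, 6.48 and 6.47 in untreated cells, with detection on a single array of the 18 kHz group. It fell by 1.30 log2 (95% interval -1.91 to -0.69, limma adjusted p = 0.0445), with 2 of the 3 levels at 18 kHz below detection. The bright Pgk1 probe (5690341) stood at 12.90, 12.77 and 13.14 at 18 kHz, against 13.19, 13.14 and 13.33 in untreated cells, and its change of -0.28 did not pass (95% interval -0.56 to 0.00, limma adjusted p = 0.179). With beadchip as a block the change of the dim Pgk1 probe was -1.22 (limma adjusted p = 0.0816), and leaving out any of the 3 untreated arrays, or 18 kHz replicate 1 or 2, also ended its call, with changes of -1.64 to -1.17. Its size depended on the scaling: scaled to the 95th percentile the dim Pgk1 probe changed by -0.37 (limma adjusted p = 0.433), and relative to the median of all probes it stood at -0.58 under that scaling and under median scaling. The bright Pgk1 probe was at 0.02 with 95th percentile scaling.

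Among the upstream enzymes, Hk1 and both tested Pfkp probes gave mean values below untreated cells that did not pass. Hk1, the hexokinase that commits glucose to the cell, stood at 5.98, 5.33 and 6.09 log2 at 18 kHz, against 6.54, 6.56 and 7.03 in untreated cells (change -0.91, 95% interval -1.40 to -0.41, limma adjusted p = 0.0567). The Pfkp probe 2900482 stood at 7.26, 7.18 and 7.94 at 18 kHz, against 8.09, 8.32 and 8.27 in untreated cells (change -0.77, limma adjusted p = 0.0647), and the Pfkp probe 290110 differed by -0.41 (limma adjusted p = 0.186). For both Hk1 and Pfkp 2900482 the groups did not overlap. With 95th percentile scaling the Hk1 value was -0.22 (limma adjusted p = 0.621), or -0.42 relative to the median of all probes, and that of Pfkp 2900482 was -0.63 (limma adjusted p = 0.0903). The Pfkl probe 6650711 went the other way, with 10.64, 11.07 and 10.12 at 18 kHz against 9.87, 10.16 and 9.98 in untreated cells, which overlapped (change 0.60, limma adjusted p = 0.123). Eno1, the enolase of most tissues, differed by -0.40 (limma adjusted p = 0.135). Ldha and Aldoa stood closest to untreated cells among the bright probes, at -0.20 (95% interval -0.50 to 0.11) and 0.09 (95% interval -0.17 to 0.34). With 95th percentile scaling Eno1 stood at -0.08, Ldha at 0.32 and Aldoa at 0.40, and relative to the median of all probes at -0.29, 0.11 and 0.20.

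Gapdh did not pass at 18 kHz, where its intensity before normalization was lower. Its bead intensity was 12725, 4698 and 16230 at 18 kHz, against 21214, 22831 and 23241 in untreated cells. Divided by the 95th percentile of the same array, Gapdh was 17.4, 16.9 and 14.6 at 18 kHz, against 13.9, 15.3 and 15.7 in untreated cells, and the groups overlapped. After quantile normalization the log2 levels were 13.94, 13.93 and 13.97 at 18 kHz, against 14.02, 14.27 and 14.30 in untreated cells. All 3 were below the untreated arrays, and the change of -0.25 did not pass (95% interval -0.51 to 0.00, limma adjusted p = 0.179). The sign of the Gapdh difference depended on the scaling: it was 0.31 after scaling to the 95th percentile and -0.98 after scaling to the median, and relative to the median of all probes 0.11 in both.

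**Figure D3:**
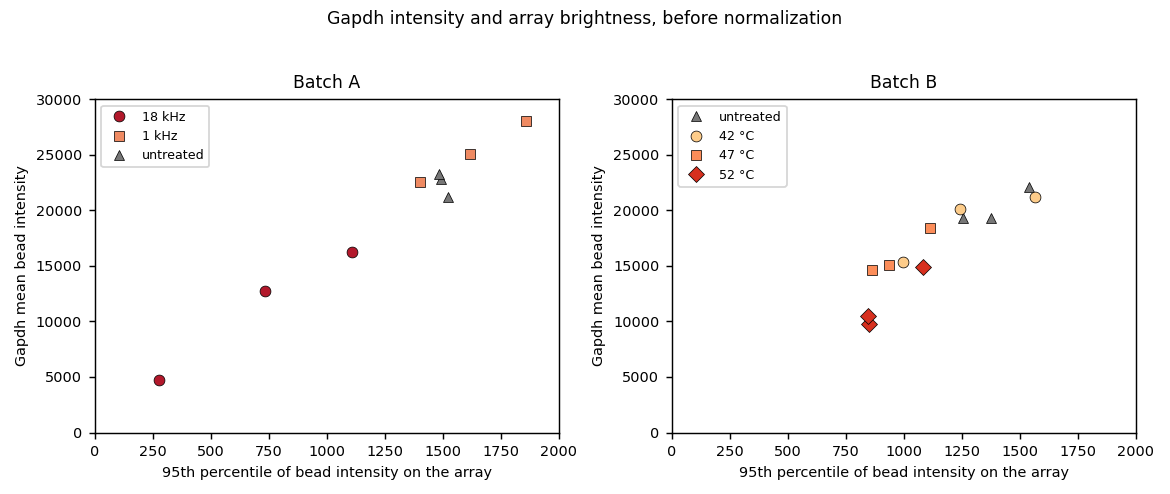
Gapdh mean bead intensity (vertical axis) against the 95th percentile of bead intensity on the same array (horizontal axis), both as deposited and linear, in batch A and batch B. Points are arrays. Gapdh and the array as a whole were dim together at 18 kHz, and Gapdh read 9757 to 14926 on the 52 °C arrays, which overlapped with the 47 °C arrays.

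At 1 kHz, the lower frequency, no glycolytic probe moved past the test. None of the 13 members passed, 0 at an unadjusted p below 0.05, and 0 of 14130 probes passed limma's adjusted test, with 248, or 1.76%, at an unadjusted p below 0.05. Member changes ran from -0.16 to 0.23 log2. For 12 of the 13 probes the 95% interval lay within a 2-fold change in either direction, and for 10 within a 1.5-fold change. Gapdh stood at 14.27, 14.27 and 14.19 log2 at 1 kHz, against 14.02, 14.27 and 14.30 in untreated cells (change 0.05, 95% interval -0.21 to 0.31). Aldoa, the aldolase of muscle and most dividing cells, was the 1 member whose groups did not overlap, with 13.16, 13.06 and 13.04 at 1 kHz against 12.79, 12.98 and 12.97 in untreated cells (change 0.18, limma adjusted p = 1), where 13.3% of all probes did not overlap.

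Between the frequencies, the same bright Pkm probe was the member that passed. It stood at 12.81, 12.88 and 12.61 log2 at 18 kHz, against 12.12, 12.21 and 12.24 at 1 kHz, and was higher by 0.58 (95% interval 0.33 to 0.83, limma adjusted p = 0.0406), where 2.48% of all probes passed, 1.49% higher. The Pkm difference was 0.63 on beadchip 1, which held 1 array at 18 kHz and 2 at 1 kHz, and 0.53 on beadchip 2, which held 2 and 1, so that these are values with no test. It did not pass without 18 kHz replicate 1 or 2 or without any of the 3 arrays at 1 kHz, with changes of 0.51 to 0.66, and under median scaling it was -0.45 where the median of all probes was -1.13. The other 12 did not pass, though 9 of 13 members had an unadjusted p below 0.05, against 27.2% of all probes, and 7 did not overlap, against 28.6%. Hk1 differed by -0.99 (limma adjusted p = 0.0538), the dim Pgk1 probe by -1.14 (limma adjusted p = 0.0587) and Gapdh by -0.30 (limma adjusted p = 0.136), and for each of these the 18 kHz arrays lay below all 1 kHz arrays. Without 18 kHz replicate 3, 9 of 13 members passed here too, beside 3972 of all 14130 probes.

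**Figure D4:**
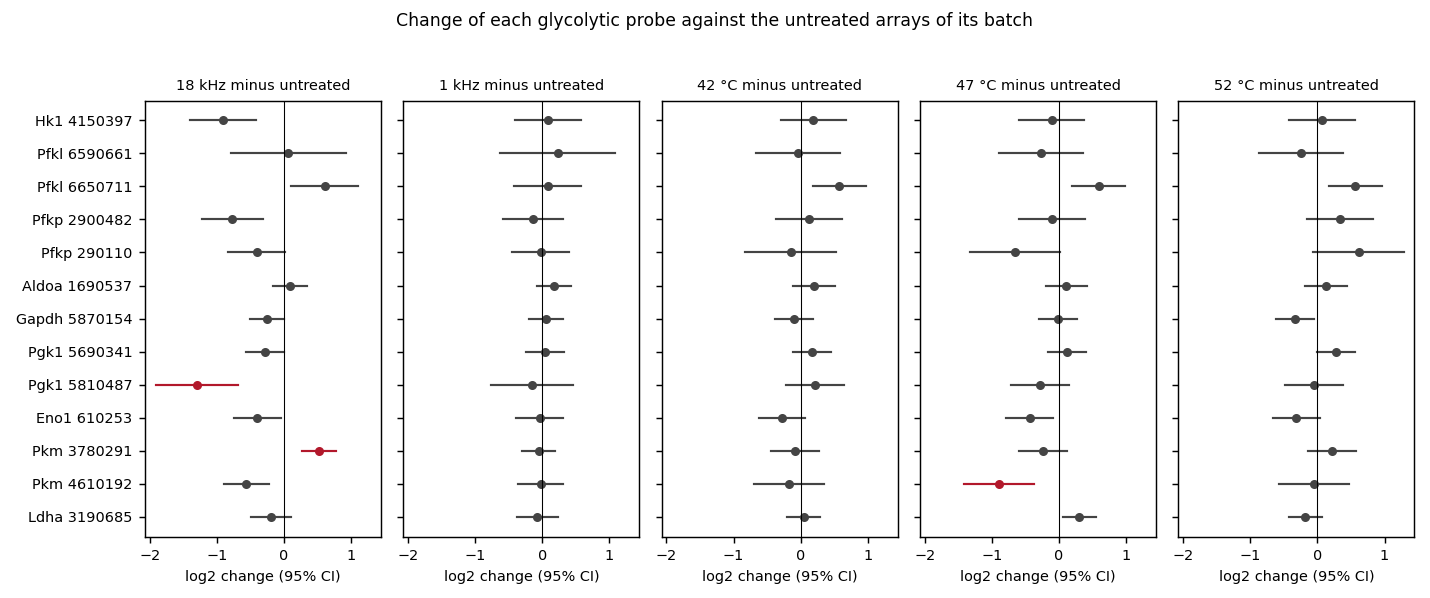
Log2 change of each of the 13 probes against the untreated arrays of its batch (horizontal axis, points) with its 95% interval (lines), for the 5 treatments, in red where limma's adjusted p was below 0.05. Of 65 intervals 3 are red, for Pgk1 5810487 and Pkm 3780291 at 18 kHz and Pkm 4610192 at 47 °C, and the 1 kHz intervals all span 0.

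Heat was compared at each temperature with the untreated cells of batch B, to set actuation beside known warming. None of the 13 members passed at 42 °C, 1 fell at 47 °C and none passed at 52 °C. Over all 13773 probes 2.41% passed at 42 °C, 7.94% at 47 °C (4.47% lower) and 13% at 52 °C, by limma's adjusted p. Members' median changes were 0.05, -0.11 and 0.07 log2 at 42, 47 and 52 °C, against 0.00, -0.01 and -0.01 over all probes. At an unadjusted p below 0.05 there were 1, 4 and 2 members at 42, 47 and 52 °C, against 14.9%, 25.8% and 29.9% of all probes. The groups did not overlap for 2, 5 and 4 members, against 27.2%, 34% and 31% of all probes. Without 52 °C replicate 1, 3 members passed at 52 °C (Pfkl 6650711, Pfkp 2900482 and Gapdh), beside 3702 of all 13773 probes.

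The call at 47 °C was the dim Pkm probe. Pkm 4610192 stood at 7.11, 7.60 and 6.79 log2 at 47 °C, against 7.99, 7.96 and 8.23 in untreated cells, and fell by 0.89 (95% interval -1.42 to -0.37, limma adjusted p = 0.0413). The groups did not overlap. On beadchip 3 the Pkm change was -1.14, between 2 arrays at 47 °C and 2 untreated ones, and on beadchip 4 it was -0.40, between 1 and 1, which is no test. Leaving out 47 °C replicate 1 or 3 or any untreated array ended the call, with changes of -1.11 to -0.70. The bright Pkm probe stood at 12.58, 12.52 and 12.18 at 47 °C, against 12.49, 12.86 and 12.64 in untreated cells (change -0.24, limma adjusted p = 0.39). At 52 °C the dim probe was at 8.44, 7.89 and 7.68, against the same untreated values, and its change was -0.06 (95% interval -0.58 to 0.47).

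For Pfkl, a subunit of the enzyme that sets the pace of the pathway, the brighter probe gave similar values at all 3 temperatures. This probe (6650711) read 10.33, 10.42 and 10.51 log2 in untreated cells, 10.99, 11.06 and 10.94 at 42 °C, 11.25, 10.80 and 10.97 at 47 °C, and 10.56, 11.22 and 11.18 at 52 °C. Each of the 9 heated arrays was above each of the 3 untreated ones. The changes were 0.57 at 42 °C (limma adjusted p = 0.141), 0.59 at 47 °C (limma adjusted p = 0.0652) and 0.57 at 52 °C (limma adjusted p = 0.0575), and none passed. Their 95% intervals ran from 0.18 to 0.97, from 0.20 to 0.98 and from 0.17 to 0.96. The 3 comparisons share their untreated arrays. With beadchip as a block the Pfkl change passed at 47 °C (0.59, limma adjusted p = 0.047) and 52 °C (0.63, limma adjusted p = 0.0285), and under median scaling, where the median of all probes was -0.43 at 52 °C, the change there was 0.00 and did not pass. The second Pfkl probe (6590661), near background, had the other sign and did not pass, at -0.05 at 42 °C and -0.25 at 52 °C. Its mean was below untreated cells at 47 °C too, where it was not detected.

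Ldha, which makes lactate, was tight within groups. It stood at 14.22, 14.11 and 14.18 log2 in untreated cells, 14.18, 14.22 and 14.25 at 42 °C, 14.49, 14.45 and 14.46 at 47 °C, and 14.07, 13.95 and 13.95 at 52 °C. The 47 °C arrays were above, and the 52 °C arrays below, every untreated array, but neither 0.30 at 47 °C (95% interval 0.05 to 0.54, limma adjusted p = 0.119) nor -0.18 at 52 °C (limma adjusted p = 0.304) passed. With 95th percentile scaling the Ldha change at 47 °C was 0.52 and passed (limma adjusted p = 0.0436), and with median scaling it was -0.01, or 0.45 relative to the median of all probes under both. At 52 °C the 95th percentile scaling gave 0.02. As quantile normalized, the group means did not run one way with temperature.

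Gapdh read 14.07, 14.09 and 14.16 log2 in untreated cells, 13.93, 14.03 and 14.06 at 42 °C, 14.12, 13.95 and 14.19 at 47 °C, and 13.96, 13.60 and 13.74 at 52 °C. Its changes were -0.10, -0.02 and -0.34, and the last did not pass (95% interval -0.62 to -0.05, limma adjusted p = 0.109), although the 52 °C arrays, like those of 42 °C, lay below all untreated ones. Without 52 °C replicate 1 the Gapdh change was -0.43 (limma adjusted p = 0.0266), and in the authors' deposited table of log2 values it was -0.33 with limma's adjusted p = 0.02. Over the 5 treatments the change of Gapdh ran from -0.34 to 0.05, and the widest 95% intervals reached -0.62 and 0.31.

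Eno1 was below untreated cells in mean at each temperature, by -0.28, -0.44 and -0.31 log2, and the 47 °C arrays (13.09, 13.30 and 13.03) lay below the untreated ones (13.41, 13.58 and 13.74), yet none passed (limma adjusted p = 0.458, 0.108 and 0.208). With median scaling Eno1 passed at 47 °C (-0.78, limma adjusted p = 0.0196) and 52 °C (-0.76, limma adjusted p = 0.0222), where the median of all probes was -0.46 and -0.43. Aldoa differed by 0.20, 0.11 and 0.13 and the bright Pgk1 probe by 0.17, 0.12 and 0.28, with limma adjusted p of 0.174 or more in each. Pgk1 5690341 at 52 °C read 13.30, 13.42 and 13.35, against 13.26, 12.96 and 13.01 in untreated cells, which did not overlap. The Pfkp probe 290110 was the most spread in untreated cells, at 7.29, 8.50 and 8.41, so that its differences of -0.66 at 47 °C (limma adjusted p = 0.202) and 0.61 at 52 °C (limma adjusted p = 0.204) were within that spread. Without untreated replicate 1, the low one, the Pfkp 290110 value was -1.05 at 47 °C, which passed (limma adjusted p = 0.0403), and 0.22 at 52 °C (limma adjusted p = 0.619). Hk1 differed by -0.11 to 0.19. The second Pfkl probe and the dim Pgk1 probe were detected on 0 of 3 arrays at 47 °C and lay near background in untreated cells too, so that no fold is given for them there.

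Between 52 and 42 °C none of the 13 passed, where 7.49% of all probes did, and 1 had an unadjusted p below 0.05, against 23.5% of all probes. This was Pfkp 290110, with arrays from 8.39 to 8.94 log2 at 52 °C against 7.60 to 8.14 at 42 °C (change 0.76, limma adjusted p = 0.157). Ldha differed by -0.23 (limma adjusted p = 0.25) and the bright Pkm probe by 0.30 (limma adjusted p = 0.301), with no overlap of groups in either. Groups did not overlap for 3 members, against 26.7% of all probes.

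Whether the 18 kHz effect differed from the 52 °C effect was tested in a fit of all 21 arrays, each effect against its own untreated group. None of the 13 differences passed, where 0.819% of 14901 probes did, and 5 had an unadjusted p below 0.05, against 18.2% of all probes. The largest in size were -1.20 for the dim Pgk1 probe (limma adjusted p = 0.082), -1.15 for Pfkp 2900482 (limma adjusted p = 0.0831), -1.03 for Pfkp 290110 (limma adjusted p = 0.174) and -0.99 for Hk1 (limma adjusted p = 0.125). Among the 6 bright probes the difference was -0.56 for Pgk1 5690341 (95% interval -0.93 to -0.20, limma adjusted p = 0.108), whose interval leaves out 0. The intervals of the other 5 held 0, with differences of -0.09 for Eno1 (95% interval -0.56 to 0.38), 0.09 for Gapdh (95% interval -0.25 to 0.44), -0.01 for Ldha (95% interval -0.35 to 0.32), -0.04 for Aldoa (95% interval -0.41 to 0.34) and 0.29 for Pkm (95% interval -0.13 to 0.71). Without 18 kHz replicate 3, the brightest of that group, 5 members passed in this test, beside 1336 of all 14901 probes.

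Of 9 measured further glycolytic genes, 2 passed at 52 °C, where 13.2% of all 9544 genes did (brightest probe of each), and 0 passed at 18 kHz, 1 kHz, 42 °C or 47 °C, where 2.64%, 0%, 2.53% and 7.62% of all genes did. At 52 °C Pfkm, the muscle-type phosphofructokinase, rose by 0.62 log2 (8.79 ± 0.33 at 52 °C and 8.17 ± 0.09 in untreated cells, SD, n = 3 each, limma adjusted p = 0.0274). Ldhc, the testis-type lactate dehydrogenase, fell by 0.61 (8.11 ± 0.25 and 8.72 ± 0.10, limma adjusted p = 0.0375). The median change of the 9 was 0.29 at 52 °C and 0.35 at 47 °C, against 0.03 over all genes in each. Of 14 genes of glucose and lactate transport and pyruvate entry, and of 9 in the pentose phosphate pathway, which branches off to make NADPH, 0 passed against untreated cells under any of the 5 treatments, by limma's adjusted p. Between 52 and 42 °C, where 7.85% of all genes passed, 1 of the 14 transport and pyruvate genes and 1 of the 9 further glycolytic genes did. The glucose transporter Slc2a3 was higher by 0.46 (limma adjusted p = 0.0456) and Eno3, the muscle-type enolase, was lower by 0.56 (limma adjusted p = 0.0238).

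Of 9 measured regulators of glycolytic genes, 3 passed at 52 °C, 1 at 47 °C, 1 at 42 °C and none at 18 kHz or 1 kHz against untreated cells. Of all genes 13.2%, 7.62%, 2.53%, 2.64% and 0% passed in these comparisons, in the same order. Between the frequencies 1 of the 9 passed, against 2.24% of all genes. Hif1a, the oxygen-controlled subunit of hypoxia inducible factor, fell by 0.83 log2 at 52 °C (6.27 ± 0.07 and 7.10 ± 0.12 in untreated cells, limma adjusted p = 0.00734) and by 0.75 at 47 °C (6.35 ± 0.31, limma adjusted p = 0.0175). Its change was -0.39 at 42 °C (limma adjusted p = 0.253) and -1.10 at 18 kHz (limma adjusted p = 0.0501), and it was lower at 18 kHz than at 1 kHz by 1.25 (7.33 ± 0.50 and 8.57 ± 0.15, limma adjusted p = 0.0411). Myc, which activates glycolytic genes in growing cells, rose by 0.93 at 52 °C (limma adjusted p = 0.0442), and its partner Max fell by 1.08 (limma adjusted p = 0.0256). Arnt, the constant subunit of hypoxia inducible factor, stood at 11.49 ± 0.67 at 42 °C and 8.77 ± 0.59 in untreated cells and rose by 2.71 (limma adjusted p = 0.00562), while at 52 °C it was 8.61 ± 0.51. Of 10 measured target genes of hypoxia inducible factor, 1 passed at 18 kHz, where 2.64% of all genes did. This was Vegfa, the vascular growth factor, which fell by 0.67 (9.22 ± 0.14 and 9.88 ± 0.22, limma adjusted p = 0.0469). None passed at 1 kHz, 42, 47 or 52 °C against untreated cells, where 0%, 2.53%, 7.62% and 13.2% of all genes did. Between 52 and 42 °C 1 of the 10 passed, higher at 52 °C, where 7.85% of all genes passed.

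Beside Gapdh, 15 other measured reference genes were looked at, and 1 passed at 18 kHz and 1 at 52 °C, against 2.64% and 13.2% of all genes. Rplp0, a protein of the large ribosomal subunit, rose by 0.58 log2 at 18 kHz (11.14 ± 0.13 and 10.56 ± 0.06 in untreated cells, limma adjusted p = 0.032). Actb, cytoplasmic actin, fell by 0.55 at 52 °C (12.79 ± 0.10 and 13.35 ± 0.08, limma adjusted p = 0.0286). The change of Gapdh was -0.25 at 18 kHz and -0.34 at 52 °C and did not pass. Those of the 15 had medians of -0.10 and 0.08, and ran from -0.44 to 0.58 at 18 kHz and from -0.55 to 0.35 at 52 °C. Measured against Gapdh on the same array, Pfkl 6650711 stood at -3.34 ± 0.50 log2 at 18 kHz and -4.19 ± 0.11 in untreated cells of batch A, and at -2.78 ± 0.54 at 52 °C and -3.69 ± 0.05 in untreated cells of batch B, so that scaling to Gapdh widened both differences of Pfkl.

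The members did not all follow Gapdh, and for some the sign of the correlation differed between the batches. Over the 9 arrays of batch A, the Pearson correlation of the log2 level with Gapdh ran from -0.86 for Pkm and -0.59 for Pfkl to 0.81 for Eno1 and 0.85 for Hk1, at the brighter or brightest probe of each gene. Pgk1 and Pfkp (each 0.76), Ldha (0.47) and Aldoa (0.33) were positive there too. Over the 12 arrays of batch B the correlation ran from -0.78 for Pgk1 to 0.69 for Ldha, and only Ldha and Eno1 (0.24) were positive. The genes most like Gapdh were Shkbp1 (0.98), Unc119 and Vim in batch A and Dhrsx (0.96), Tle4 and Wdr75 in batch B, with no gene among the top 5 of both. Arrays of a group share their treatment, and these coefficients are a description of 9 and 12 arrays.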

How the data were processed

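Illumina BeadChip arrays of total RNA were summarised in GenomeStudio by the authors, who deposited for each batch the mean bead intensity per probe, not normalized, with a bead standard error, a bead number and a detection p-value, per the file headers (gene expression module 1.7.0 for batch A and 1.9.0 for batch B). The detection p-value is deposited per probe and array. In batch A 3 array columns match no sample and were not used. The authors also deposited a table of log2 values of unstated method, matched here for 40083 probes and used for batch B as an alternative.

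In R 4.3.3, limma 3.58.1 was applied to each batch separately: normexp background correction from the detection p-values, an offset of 16, quantile normalization and log2. A probe was tested in a batch where 3 or more arrays had a detection p below 0.01 (14130 in batch A, 13773 in batch B), with Benjamini-Hochberg adjustment over all of them and a threshold of 0.05. Quantile normalization hides a change of all transcripts together. The joint fit used 21 arrays and 14901 probes. For the other gene lists the brightest probe of a gene stands for it. Gene names follow RefSeq GRCm38.p6, used for names and promoter windows. The build of the array's probes is not given in the sources used here. All members are named, with up to 4 genes of smallest p per list and comparison and the 5 genes most like Gapdh. The members and lists were chosen with earlier results of these data known. Replicate numbers were not used to pair samples. Correlations of same-numbered deviations lay between -0.23 and 0.46 (batch A) and between -0.43 and 0.15 (batch B). Those of different numbers lay between -0.59 and 0.43 and between -0.31 and 0.49. With 3 arrays per group this cannot exclude pairing. Precision is limited by 3 arrays per group, and the code was tested on simulated data.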

Additional observations from a re-analysis of the deposited data

How the results depend on the processing

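The number of members that passed limma's adjusted test moved with most settings. At 18 kHz against untreated cells it was 2 as reported. It was 0 with 95th percentile scaling, beadchip as a block, no detection filter, only the arrays of the 2 groups, beadchip 2 alone or without the dimmer 18 kHz arrays 1 and 2, 1 with one probe per gene, 4 with an offset of 50 or a trended and robust prior, 5 with no background correction, 7 with median scaling and 8 with array weights. Over all 14130 probes 6933 passed with median scaling, 3932 with array weights and 1222 with no background correction, against 434 as reported. The trended and robust prior gave 1094 and an offset of 50 gave 820. Leaving out each array in turn gave 0 to 9 members, the 9 without 18 kHz replicate 3. Median scaling moved the median of all probes to -1.09 and turned the bright Pkm probe to -0.49. Between 18 and 1 kHz the count was 1 as reported. It was 0 with 95th percentile scaling, beadchip as a block, no detection filter or only the 2 groups. It was 2 with all arrays normalized together or detection on every array and 3 with an offset of 50. No background correction or a trended prior gave 4, and median scaling (Pkm at -0.45) or array weights gave 8. With an array left out it was 0 to 9, the 9 without 18 kHz replicate 3. Over all 14130 probes 7752 passed between the frequencies with median scaling, 3153 with array weights and 886 with no background correction, against 351 as reported. The trended prior gave 954 here, an offset of 50 gave 596 and all arrays normalized together gave 395. With detection on every array 1063 of 8937 probes passed. For 1 kHz against untreated cells the count of members was 0 throughout.

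At 42 °C the count was 0, and 1 with array weights, the deposited log2 table or only the 2 groups. At 47 °C it was 1, against 0 with no detection filter or one probe per gene. It was 2 with 95th percentile scaling, beadchip as a block, detection on every array or an offset of 50, and 3 with no background correction. Median scaling, a trended prior or the deposited table gave 4 at 47 °C, array weights gave 5, and an array left out gave 0 to 1. At 52 °C it was 0, against 1 with an offset of 50 or detection on every array, 2 with beadchip as a block, the deposited table, median scaling, no background correction or a trended prior, 5 with array weights and 0 to 3 when an array was left out (the 3 without 52 °C replicate 1). Between 52 and 42 °C it was 0, against 1 with array weights or the deposited table and 0 to 1 when an array was left out. For the 18 kHz effect against the 52 °C effect it was 0, against 1 with no background correction, 3 with array weights and 0 to 5 when an array was left out. With the replicate number as a block the count was 0 at 18 kHz, between the frequencies and at 47 °C. The counts of the other 5 comparisons stayed at 0, and the pairing check could not decide whether replicates were paired. Single members that had not passed were compared in sign only where the alternative passed. Over all 13773 probes of batch B, 4763 passed at 52 °C with array weights and 4281 with median scaling, against 1786 as reported. At 47 °C these were 2787 and 4419, against 1093. At 47 and 52 °C the deposited table gave 1835 and 2809, and no background correction gave 1274 and 2086. A trended prior gave 1246 and 2089, an offset of 50 gave 1281 and 2113, and beadchip as a block gave 1335 and 2425. Detection on every array gave 1149 and 1849 of 10328 probes. With 95th percentile scaling 1218 passed at 47 °C. With array weights 1626 passed at 42 °C, against 332, and 3475 between 52 and 42 °C, against 1032. The deposited table gave 588 and 1671 in these, and only the 2 groups gave 553 at 42 °C. For the 18 kHz effect against the 52 °C effect 1686 of 14901 passed with array weights and 236 with no background correction, against 122. The cause of these moves in the counts was not tested. The dim Pgk1 probe and Pfkl 6590661 lay near background, which limits them. Within single beadchips most comparisons, those of 18 with 1 kHz among them, have an arm of 1 array, assumed to vary like the others. No count is given for these.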
